A study of Mus musculus with 6 samples.

Results

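Glycolysis and hypoxia response genes were read in RNA from mouse sarcoma cells that lack Dicer and from sarcoma cells that keep 1 intact copy. The list held 33 genes, and 29 of them had a probe set tied to that gene alone; the 29 were all bright enough to be tested, among 11425 tested genes of 18193 with such a probe set. The list was made of the enzymes and transporters that carry glucose to lactate, and of the oxygen sensors and target genes of the hypoxia-inducible factor. One probe set stood for each gene, the one with the highest mean over the 6 arrays. Gapdh and Bnip3l each had 3 probe sets in the platform annotation, all shared with pseudogenes or other symbols, and were left out for that reason, and Gpi1 and Eno1 were not analysed here.

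The Dicer null group was 3 sarcoma samples null for Dicer, and the Dicer heterozygous group was 3 sarcoma samples with 1 intact copy. Both were of strain C57BL6/J, were grown in DMEM with 10% FBS, penicillin/streptomycin and L-glutamine, and were harvested when confluent. No sample with both copies of Dicer was part of the comparison. The design text speaks of 3 lines in each group and the titles of replicates. The p-values below set a group difference against the spread between these samples, which may be technical. If each group was 1 line, a difference between genotypes cannot be told apart from a difference between lines. The labels do not name the tumour type, the driver of the deletion or the part of Dicer1 removed. The sources used here do not state oxygen tension or the glucose content of the medium.

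Dicer trims precursor hairpins into mature microRNAs. Glycolysis splits glucose to pyruvate, and lactate dehydrogenase then turns pyruvate to lactate, a route that many tumour cells use heavily even with oxygen at hand. When oxygen falls, prolyl hydroxylases stop marking the alpha subunit of the hypoxia-inducible factor (HIF) for destruction. The stabilised factor then raises transcription of glucose transporters, glycolytic enzymes and genes such as Vegfa. HIF binds the core letters ACGTG or GCGTG in its target genes.

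Promoters of 4 members are shown as examples, picked with the measured differences below known. A link between these letters and those differences was not tested. Hk2, Pfkfb3 and Eno2 were among the 4 members with an unadjusted p under 0.05, and Ldha was not. Each sequence is the RefSeq window of GRCm38.p6 from 250 bases before to 50 bases after a gene start, written 5′ to 3′ on the gene's strand, and capitals mark ACGTG or GCGTG on either strand (CACGT or CACGC where the match lies on the opposite one).

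Hk2, chr6:82774405-82774704, minus strand: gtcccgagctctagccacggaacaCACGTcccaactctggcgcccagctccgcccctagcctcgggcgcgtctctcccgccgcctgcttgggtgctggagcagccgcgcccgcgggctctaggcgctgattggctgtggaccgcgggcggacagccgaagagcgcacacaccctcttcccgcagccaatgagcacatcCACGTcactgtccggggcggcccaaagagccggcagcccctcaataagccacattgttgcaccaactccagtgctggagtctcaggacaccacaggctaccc
Pfkfb3, chr2:11502041-11502340, minus strand: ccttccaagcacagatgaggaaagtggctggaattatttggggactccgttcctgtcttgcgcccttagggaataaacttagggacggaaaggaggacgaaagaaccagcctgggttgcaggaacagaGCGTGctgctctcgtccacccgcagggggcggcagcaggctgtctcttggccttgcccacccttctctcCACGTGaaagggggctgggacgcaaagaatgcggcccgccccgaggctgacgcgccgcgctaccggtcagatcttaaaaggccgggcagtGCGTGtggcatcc
Ldha, chr7:46845554-46845853, plus strand: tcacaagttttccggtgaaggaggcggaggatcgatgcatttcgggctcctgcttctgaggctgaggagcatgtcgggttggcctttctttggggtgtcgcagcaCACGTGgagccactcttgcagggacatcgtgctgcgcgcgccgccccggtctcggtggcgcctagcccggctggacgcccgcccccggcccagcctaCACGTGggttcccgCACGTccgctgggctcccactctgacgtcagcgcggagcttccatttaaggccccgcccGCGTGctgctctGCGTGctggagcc
Eno2, chr6:124769624-124769923, minus strand: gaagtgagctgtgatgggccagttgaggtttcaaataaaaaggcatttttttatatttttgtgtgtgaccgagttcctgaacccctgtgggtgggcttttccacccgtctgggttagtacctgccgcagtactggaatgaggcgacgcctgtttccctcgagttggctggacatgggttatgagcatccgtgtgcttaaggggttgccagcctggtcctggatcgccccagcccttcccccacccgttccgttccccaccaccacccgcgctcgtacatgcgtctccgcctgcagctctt

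The Hk2 window held 2 matches, the Pfkfb3 window 4, the Ldha window 7 and the Eno2 window 0, with each strand counted. A match on both strands at CACGTG, the E-box that Myc and its partners bind, counts as 2. Of the 27 measured members with a promoter entry, 25 had at least 1 match in at least 1 window, which is 92.6% against 46.7% of all 27025 genes with an entry. Counted by window, 32 of 40 held a match, or 80%, against 43.8% of all 32851 windows. The list was chosen to hold HIF target genes, so a higher share is no finding about these samples. CACGTG stood in a window of 6 of the 27, or 22.2%, against 8.09% of all genes. Pfkfb3 and Ldha each have another annotated start, with 1 and 2 matches, and Slc2a3 and Ndrg1 had no entry. The matches are letters in a window and no measure of binding. Tpi1 was the other of the 27 with no match in any window.

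None of the 29 members passed the test between Dicer null and Dicer heterozygous cells. The test was limma's moderated one, Benjamini-Hochberg adjusted at 0.05 across the 24385 probe sets tested, and 3.46% of all tested genes passed it. Before adjustment 4 members had a p under 0.05. Hk2 and Pfkfb3 were higher in Dicer null arrays, where 10.5% of all genes met that limit in that direction, and Eno2 and Slc2a3 were lower, where 13.5% did. These are 2 of 29 each way, no larger a share than among all genes. The median log2 difference of the members was 0.06, against -0.01 over all tested genes, and 17 of 29 lay above 0, against 48.7% of all genes. A log2 difference of at least 1 in either direction was seen in 3 members, Eno2, Slc2a3 and Egln3, and in 15.3% of all genes. In such bulk RNA, fewer cells of a type and less RNA per cell cannot be told apart.

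In 3 members, Slc2a1, Hk2 and Pfkfb3, all Dicer null arrays lay above all Dicer heterozygous arrays, a pattern that 14.9% of all genes showed. In Pfkm and Eno2 they all lay below, as in 17.2% of all genes. Of the 17 other settings tried, 16 also called 0 members. The exception was limma's array weights, which gave Dicer heterozygous replicate 2 a weight of 14.5 and the other arrays 0.241 to 1.26. With them Hk2, Pfkfb3, Adm and Eno2 were called, 4 of 29, where 29.2% of all genes were.

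**Figure D1:**
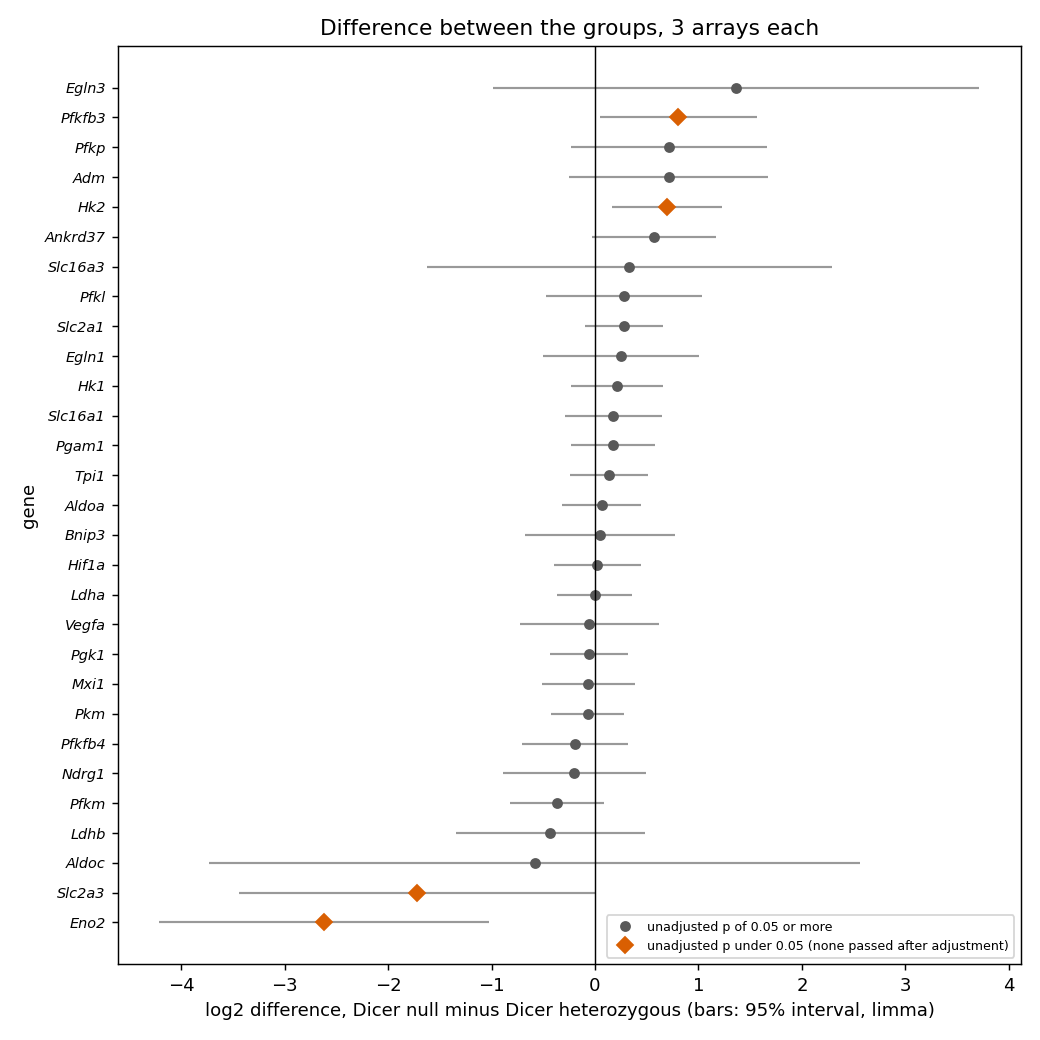
Log2 difference of each of the 29 members (x axis, Dicer null minus Dicer heterozygous, 3 arrays each), ordered by size, with the 95% interval from limma as bars. Eno2 at -2.62 and Slc2a3 at -1.72 lie farthest to the left, Egln3 at 1.37 farthest to the right, and the bars of 25 members cross 0.

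Glucose enters through facilitative transporters. Slc2a1, the basal glucose transporter, had log2 values of 12.46, 12.54 and 12.58 in Dicer null arrays, against 12.34, 12.29 and 12.11 in Dicer heterozygous arrays. The groups did not overlap, but the difference of 0.28 (SE 0.15) did not pass (limma adjusted p = 0.329), and its 95% interval ran from -0.09 to 0.65. All 3 of its probe sets had null means above the heterozygous ones, by 0.26 to 0.39. Slc2a3, a high-affinity transporter best known from neurons, had 4.20, 3.90 and 5.79 in Dicer null arrays, against 6.20, 5.32 and 7.54 in Dicer heterozygous arrays. Dicer null replicate 3 lay above Dicer heterozygous replicate 2, so the groups overlapped. The difference was -1.72 (SE 0.71, 95% interval -3.44 to -0.00, limma adjusted p = 0.215), and it was -1.13 without Dicer heterozygous replicate 3 and -2.30 without Dicer null replicate 3. Its second tested probe set gave -2.18, and the remaining pair of probe sets was too dim to test, with means under a log2 value of 3. Both tested probe sets carry a suffix that marks possible cross-hybridisation. The dim pair, without that suffix, lay between 1.49 and 1.92 on all 6 arrays and differed by 0.13 and -0.08. The lower null level of Slc2a3 was thus read only from probe sets with the suffix.

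Of the hexokinases, which trap glucose as glucose 6-phosphate, Hk2 showed the clearer separation. This inducible form, which binds mitochondria and is abundant in muscle and in many tumours, had 11.15, 11.61 and 11.69 in Dicer null arrays, against 10.97, 10.84 and 10.55 in Dicer heterozygous arrays. Every null array lay above every heterozygous one. The difference of 0.70 (SE 0.22), or 1.62-fold, had a 95% interval of 0.17 to 1.23 and an adjusted p of 0.133 in limma. It stayed between 0.58 and 0.86 when 1 array was left out, with adjusted p from 0.146 to 0.337. Hk1, the form of most tissues, had 9.88, 9.72 and 9.72 in Dicer null arrays, against 9.79, 9.57 and 9.32 in Dicer heterozygous arrays, and the groups overlapped.

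Phosphofructokinase commits sugar to glycolysis and is built from liver (Pfkl), muscle (Pfkm) and platelet (Pfkp) type subunits. Pfkp had 11.79, 11.50 and 11.91 in Dicer null arrays, against 11.59, 11.31 and 10.15 in Dicer heterozygous arrays. Dicer heterozygous replicate 3 stood well below the rest, and the difference of 0.72 (SE 0.39, limma adjusted p = 0.327) was 0.28 without it. The other 2 probe sets of Pfkp gave 1.16 and 1.31. Pfkm lay lower in Dicer null arrays, at 9.48, 9.14 and 9.62, against 9.72, 9.73 and 9.89 in Dicer heterozygous arrays. Its difference was -0.37 (SE 0.19, limma adjusted p = 0.295). Pfkl differed by 0.28 (SE 0.31), with groups that overlapped.

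Pfkfb3 and Pfkfb4 make and break fructose 2,6-bisphosphate, the strongest activator of phosphofructokinase. Pfkfb3 had 9.64, 9.05 and 9.14 in Dicer null arrays, against 8.97, 8.50 and 7.94 in Dicer heterozygous arrays. The groups did not overlap, although Dicer null replicate 2 and Dicer heterozygous replicate 1 were close. The difference was 0.81 (SE 0.31, 95% interval 0.05 to 1.56, limma adjusted p = 0.193), and it ranged from 0.54 without Dicer heterozygous replicate 3 to 1.06 without Dicer heterozygous replicate 1. A second, much dimmer probe set of Pfkfb3 gave -0.10. Pfkfb4 was -0.19 apart (SE 0.21), with Dicer null values from 4.91 to 5.09 and Dicer heterozygous values from 4.88 to 5.53.

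Proliferation markers were set beside these differences. The differences of Slc2a1, Hk1, Hk2, Pfkl, Pfkp and Pfkfb3 lay above 0, and those of Slc2a3, Pfkm and Pfkfb4 below. Over 17 tested markers the median deviation from each gene's mean was 0.24, 0.50 and 0.20 in Dicer null replicates 1, 2 and 3, against -0.09, 0.04 and -0.81 in Dicer heterozygous replicates 1, 2 and 3. All 17 had null means above the heterozygous ones, against 48.7% of all tested genes. In 10 of them all Dicer null arrays lay above all Dicer heterozygous arrays, against 14.9% of all genes. An unadjusted limma p under 0.05 was seen in 5, where 10.5% of all genes met that limit in that direction. None of the 17 passed in limma, and Cdc6, a replication licensing factor, came nearest (adjusted p = 0.0570). Dicer heterozygous replicate 3 was the lowest array for 8 of the 29 members, or 27.6%, no larger a share than the 29.8% of all tested genes. The part of proliferation in those differences was not tested.

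**Figure D2:**
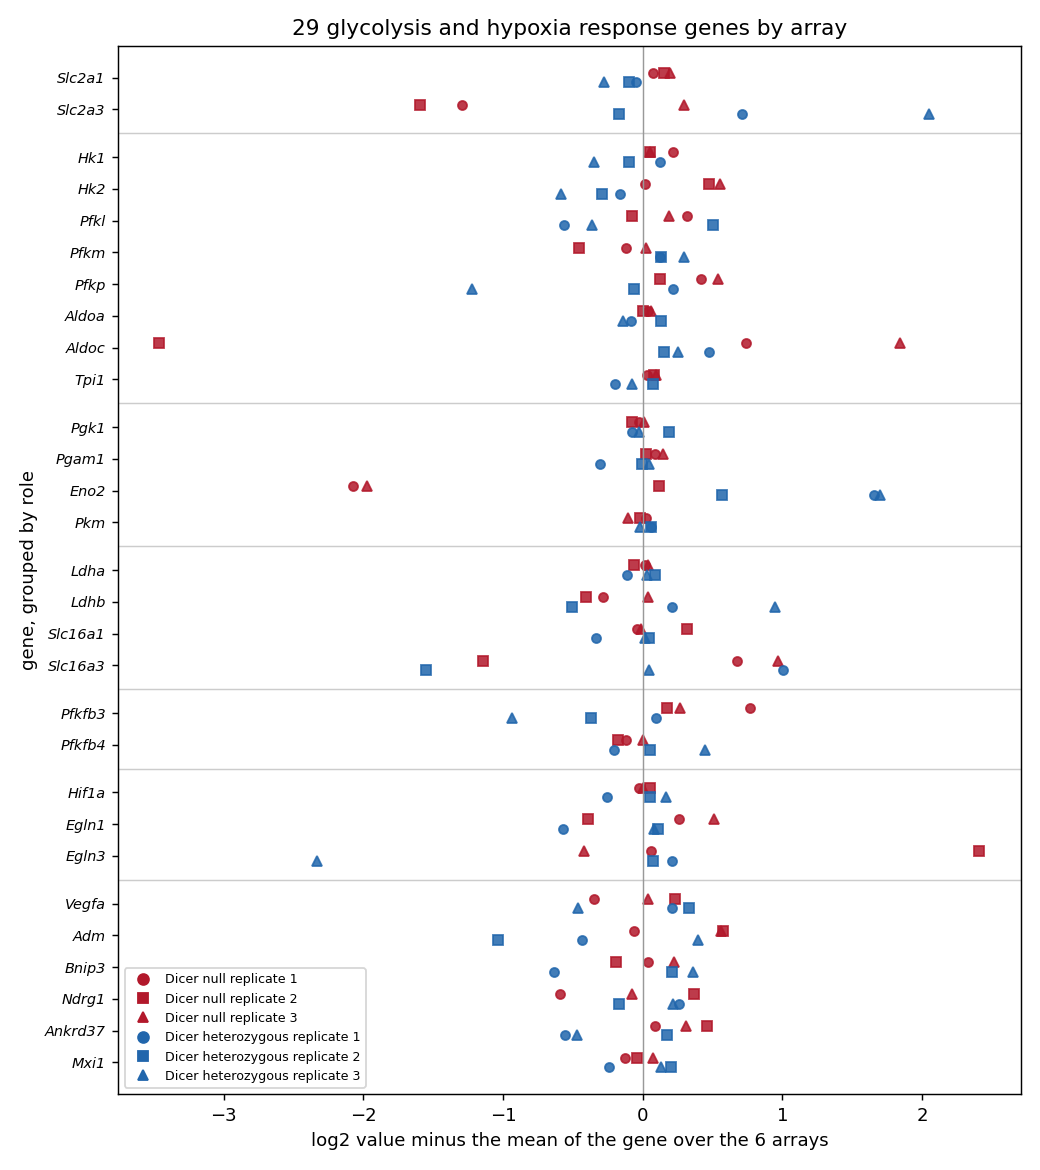
Each of the 29 members by array: the x axis is the log2 value minus that gene's mean over the 6 arrays, rows are genes grouped by role, red marks Dicer null and blue Dicer heterozygous arrays, and the shape gives the replicate. The 6 arrays span 0.17 log2 units for Pkm and 0.20 for Ldha, while Slc2a3, Aldoc, Eno2, Slc16a3 and Egln3 spread over 2.56 to 5.30 log2 units.

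The enzymes in the middle of the pathway lay high on all arrays. Aldoa, the aldolase of muscle and most tissues, had log2 values of 13.01 to 13.07 in Dicer null arrays and 12.87 to 13.14 in Dicer heterozygous arrays. Tpi1, which interconverts the triose phosphates, had 12.71 to 12.77 in Dicer null arrays and 12.48 to 12.75 in Dicer heterozygous arrays. Pgk1, which makes ATP from bisphosphoglycerate, differed by -0.06 (SE 0.16), Pgam1, the mutase after it, by 0.17 (SE 0.17), and Pkm, pyruvate kinase, by -0.07 (SE 0.15). None of these groups was separated. Together with Slc2a1 and Ldha these 5 genes were the 7 members at 12 or more on all arrays, on a scale whose highest value was 14.18. Of the 7, Slc2a1 had the largest difference. Whether values this near the top of the scale are compressed was not tested.

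Some isozymes known from brain spread widely. Eno2, the neuronal enolase, was the member with the smallest p. It had 6.70, 8.89 and 6.80 in Dicer null arrays, against 10.43, 9.34 and 10.47 in Dicer heterozygous arrays. All null arrays lay below all heterozygous ones, with Dicer null replicate 2 nearest to them. The difference was -2.62 (SE 0.66, 95% interval -4.21 to -1.02), a 6.13-fold lower level, with an adjusted p of 0.0872 in limma. Without Dicer null replicate 2 it was -3.33 (limma adjusted p = 0.0718), and without each other array -2.24 to -2.99. Eno2 had 1 probe set only, and Eno1, the common enolase, gave no value to set beside it.

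Aldoc, the aldolase of brain, had 7.72, 3.52 and 8.82 in Dicer null arrays, against 7.45, 7.13 and 7.23 in Dicer heterozygous arrays. Its 3 heterozygous values were close together, and Dicer null replicate 2 alone was near background while the other null arrays lay above every heterozygous one. The difference of -0.58 (SE 1.30, limma adjusted p = 0.824) turned to 1.0 without that array (limma adjusted p = 0.269). Its second probe set was too dim to test.

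Lactate dehydrogenase and the monocarboxylate transporters close the pathway. Ldha, the subunit that favours lactate, had 13.07, 12.99 and 13.09 in Dicer null arrays, against 12.94, 13.14 and 13.08 in Dicer heterozygous arrays. The difference was -0.00 (SE 0.15), and the 95% interval of -0.37 to 0.36 leaves room for changes of that size either way. Ldhb, the heart-type subunit, had 9.88, 9.76 and 10.20 in Dicer null arrays, against 10.37, 9.66 and 11.11 in Dicer heterozygous arrays. Its difference was -0.43 (SE 0.38), its 4 probe sets gave -0.43 to -0.48, and without Dicer heterozygous replicate 3 it was -0.07.

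Slc16a1, a general carrier of lactate and pyruvate, differed by 0.18 (SE 0.19). Slc16a3, the lactate exporter of glycolytic cells, had 7.52, 5.70 and 7.81 in Dicer null arrays, against 7.85, 5.29 and 6.89 in Dicer heterozygous arrays. Replicate 2 was the lowest array of both groups, and the difference was 0.33 (SE 0.81), changing sign without Dicer heterozygous replicate 2 (-0.36) or Dicer null replicate 3 (-0.07).

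**Figure D3:**
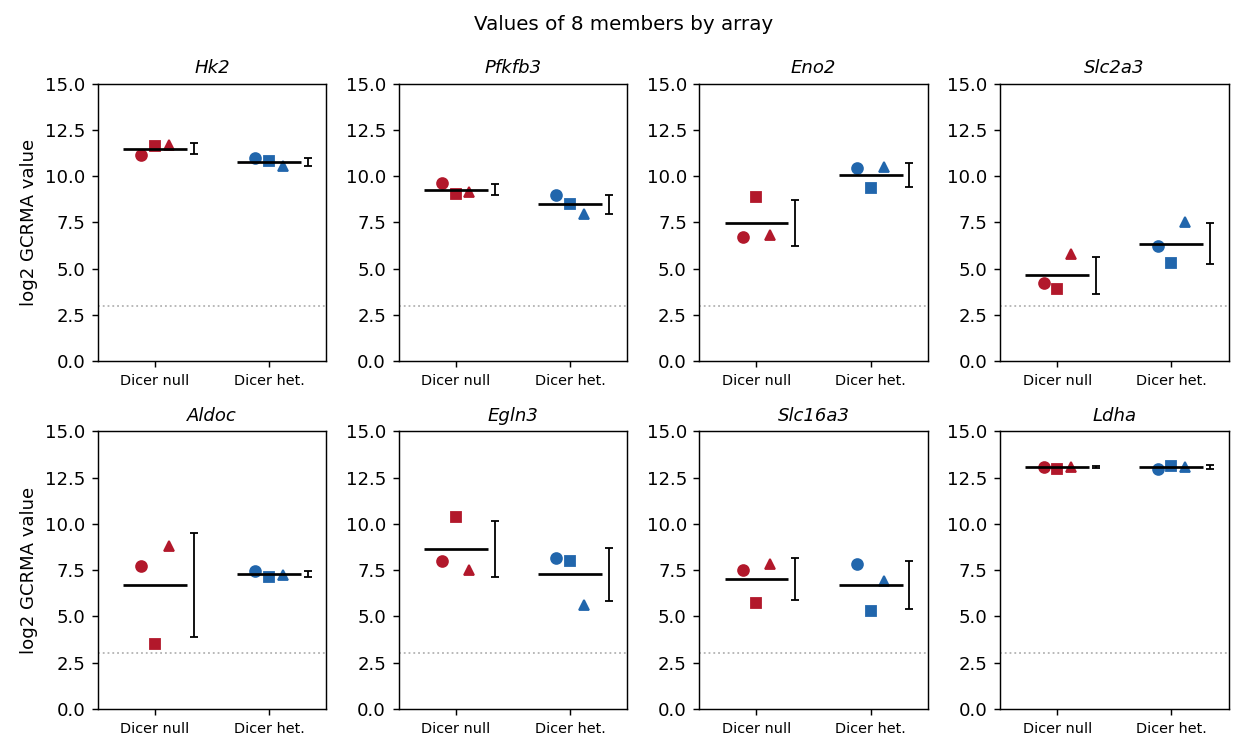
Log2 GCRMA values (y axis) of 8 members in the 3 Dicer null arrays (red, left) and the 3 Dicer heterozygous arrays (blue, right). Lines are means, bars are SD, shapes are replicates 1 (circle), 2 (square) and 3 (triangle), and the dotted line is the log2 value of 3 used as the minimum mean. Dicer null replicate 2 is low for Aldoc at 3.52 and high for Egln3 at 10.36, while the 6 values of Ldha lie between 12.94 and 13.14.

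The hypoxia sensors among the members showed no called difference. Hif1a, the oxygen-regulated subunit, which is controlled mainly through protein stability, had 12.13, 12.21 and 12.16 in Dicer null arrays, against 11.90, 12.21 and 12.32 in Dicer heterozygous arrays. The groups overlapped, with a difference of 0.02 (SE 0.17), and 2 further tested probe sets gave 0.24 and 0.31. Egln1, the prolyl hydroxylase that sets HIF levels under normal oxygen, differed by 0.25 (SE 0.31). Egln3, a hydroxylase that HIF itself induces, had 8.01, 10.36 and 7.53 in Dicer null arrays, against 8.16, 8.02 and 5.62 in Dicer heterozygous arrays. Dicer null replicate 2 was far the highest and Dicer heterozygous replicate 3 far the lowest, and the other 4 arrays lay between 7.53 and 8.16. Its difference of 1.37 (SE 0.97, limma adjusted p = 0.445) was 0.50 without the first of these arrays and 0.54 without the second.

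HIF target genes outside metabolism among the members gave no called difference either. Vegfa, the main angiogenic growth factor, had 9.34, 9.92 and 9.73 in Dicer null arrays, against 9.90, 10.02 and 9.23 in Dicer heterozygous arrays. Bnip3, a mitophagy receptor, differed by 0.05 (SE 0.30), Ndrg1, a stress-induced gene, by -0.20 (SE 0.29), and Mxi1, an antagonist of Myc, by -0.06 (SE 0.18). None of the 4 was separated. The probe sets of Ndrg1 did not all point one way and spanned -0.31 to 0.26.

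Adm, the vasodilator peptide adrenomedullin, had 10.80, 11.44 and 11.42 in Dicer null arrays, against 10.43, 9.83 and 11.26 in Dicer heterozygous arrays. Dicer heterozygous replicate 3 lay within the null values, so the groups overlapped. The difference was 0.71 (SE 0.40, limma adjusted p = 0.335), and a second probe set gave 0.07. It was 0.38 without Dicer heterozygous replicate 2 and 1.09 without Dicer heterozygous replicate 3. Ankrd37, an ankyrin repeat gene induced by HIF, had 7.28, 7.65 and 7.50 in Dicer null arrays, against 6.64, 7.37 and 6.72 in Dicer heterozygous arrays. Its difference was 0.57 (SE 0.25, limma adjusted p = 0.236), and the groups overlapped.

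Dicer heterozygous replicate 1 was the lowest of the 6 arrays for 11 of the 29 members, or 37.9%, against 16.3% of all tested genes. The 6 hypoxia response genes had a median deviation of -0.34 on that array, and 0.17 to 0.19 on the other Dicer heterozygous arrays. The Dicer null arrays gave -0.10, 0.30 and 0.15. The arrays of one genotype thus spread more widely than the gap between the group means. The median within-group SD was 0.31 for the members and 0.31 for all tested genes.

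For 9 pairs of isozymes or paralogues, the log2 value of one was subtracted from that of the other on each array, so that a change of the pair's balance could be read. The Slc2a3 to Slc2a1 difference changed by -2.0 (Dicer null minus Dicer heterozygous), the Pfkfb4 to Pfkfb3 difference by -1.0, the Pfkm to Pfkl difference by -0.65 and the Hk2 to Hk1 difference by 0.48. Each of these 4 had an exact two-sided permutation p of 0.2, and 0.45 after Benjamini-Hochberg adjustment over the 9. They were named for having the smallest p, and other pairs changed as much. The Egln3 to Egln1 difference changed by 1.1 (exact permutation p = 0.6) and the Aldoc to Aldoa difference by -0.65, with wide spread between arrays of one genotype. With 3 arrays a group the smallest p possible is 0.1, so this comparison could not pass at 0.05. The pairs of Eno2 and Bnip3l could not be formed.

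Beyond the members, other genes of these pathways were read from lists. Beside the counts of each list below, 166 of all 11425 tested genes rose and 229 fell, or 3.46% in either direction. Of 15 tested HIF subunits and regulators 1 rose and 0 fell, with a median log2 difference of 0.07. The 1 was Hif1an, the asparaginyl hydroxylase that blocks HIF from its coactivators. It had 10.50, 10.47 and 10.18 in Dicer null arrays, against 8.36, 8.88 and 8.30 in Dicer heterozygous arrays. The groups were far apart, and it rose by 1.87 (SE 0.22, limma adjusted p = 0.0193), or 3.66-fold. The call was lost without any one of the Dicer null arrays (limma adjusted p = 0.0619, 0.0845 and 0.0736 without replicates 1, 2 and 3), while the difference stayed between 1.76 and 2.05. Its other probe sets were too dim to test.

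Of 33 tested further HIF target genes 1 rose and 0 fell, with a median of 0.18. Ak4, a mitochondrial adenylate kinase, had 12.18, 12.28 and 12.24 in Dicer null arrays, against 11.34, 11.50 and 11.10 in Dicer heterozygous arrays. It rose by 0.92 (SE 0.17, limma adjusted p = 0.0481), and a second probe set rose by 1.61 (SE 0.22, limma adjusted p = 0.0272). The first of these, unlike the second, carries a suffix that marks possible cross-hybridisation. The remaining tested probe set, much dimmer, differed by 0.74 and did not pass (limma adjusted p = 0.193). No fit without 1 array called it (limma adjusted p = 0.0618 to 0.166), though its difference stayed between 0.81 and 1.01.

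At the exit of glycolysis, 2 of 9 tested genes of pyruvate entry and gluconeogenesis fell and 0 rose (median -0.20). Mpc1, a subunit of the carrier that brings pyruvate into mitochondria, had 7.65, 7.26 and 6.56 in Dicer null arrays, against 10.18, 9.84 and 9.90 in Dicer heterozygous arrays. It fell by 2.82 on the log2 scale (SE 0.30, limma adjusted p = 0.0169), a 7.05-fold lower level. The call was lost without Dicer heterozygous replicate 2 (limma adjusted p = 0.0573) or Dicer null replicate 2 (0.0776). G6pc3, the glucose 6-phosphatase of most tissues, had 3.83, 3.12 and 4.12 in Dicer null arrays, against 6.08, 5.85 and 5.94 in Dicer heterozygous arrays. It fell by 2.27 (SE 0.28, limma adjusted p = 0.0211), and only without Dicer heterozygous replicate 1 or 3 did it stay called among the fits that left out 1 array. Mpc1 and G6pc3 each had 1 probe set only, and the null values of G6pc3 lay little above the minimum mean of 3.

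Among 12 other tested glycolysis and glucose transport genes 1 fell and 0 rose, with a median of -0.25. Slc2a12, a facilitative glucose transporter, had 2.88, 2.39 and 2.21 in Dicer null arrays, against 6.62, 5.15 and 5.06 in Dicer heterozygous arrays. The null values all lay under 3, so the fall is given as at least 6.11-fold against a floor of 3. With the values as deposited the difference was -3.12 (limma adjusted p = 0.0302). With values under 3 set to 3 it was -2.61 (limma adjusted p = 0.0386). The call was lost without Dicer heterozygous replicate 2 or any one Dicer null array (limma adjusted p = 0.0703 to 0.118). The called probe set carries a suffix that marks possible cross-hybridisation. A second, dimmer probe set was not tested, and its difference was -0.49. In the pentose phosphate pathway 0 of 6 tested genes passed in limma and 0 had an unadjusted p under 0.05, and Taldo1, transaldolase, came nearest at -0.69 (SE 0.32, limma adjusted p = 0.251).

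**Figure D4:**
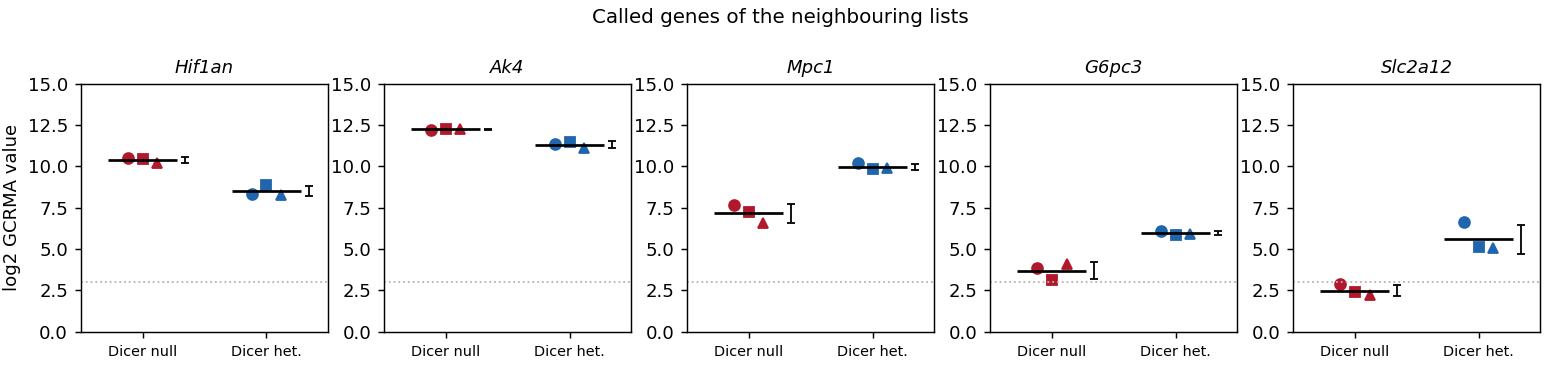
Log2 GCRMA values (y axis) of the 5 called genes from the lists of neighbouring pathways, Dicer null arrays in red on the left and Dicer heterozygous arrays in blue on the right, with means (lines), SD (bars) and the log2 value of 3 (dotted). Hif1an and Ak4 are higher and Mpc1, G6pc3 and Slc2a12 lower in all Dicer null arrays.

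The arrays had medians of 3.32 to 3.43 and correlated at 0.963 to 0.991. Dicer1 itself did not separate the groups (8.46 ± 0.09 in Dicer null and 8.32 ± 0.24 in Dicer heterozygous arrays, SD, n = 3; limma adjusted p = 0.693), and a probe set outside the deleted part would check nothing. Among markers of cell type, 11 of 12 fibroblast markers were bright enough to test, and Vim lay between 13.71 and 13.84 throughout. Of the 11, 5 had null means above the heterozygous ones and 6 below. Fap, a fibroblast protease, had 9.41, 6.12 and 8.32 in Dicer null arrays, against 3.68, 2.42 and 2.83 in Dicer heterozygous arrays, and rose (limma adjusted p = 0.0408). Its difference, from its only probe set, was 4.97, or 4.72 with values under 3 set to 3. With no minimum mean Fap was not called (limma adjusted p = 0.0593). The other 10 did not pass, and those nearest to it lay the other way: S100a4 differed by -1.37 (limma adjusted p = 0.0570) and Pdgfra, a growth factor receptor, by -1.63 (limma adjusted p = 0.0593), both with all Dicer null arrays below all Dicer heterozygous ones. All 8 endothelial markers stayed under 3 on every array, as did 5 of 8 leukocyte markers, Ptprc included. Cd68 came nearest to a difference among the 2 tested leukocyte markers, at -0.70 (limma adjusted p = 0.535). Of 3 tested epithelial markers Ocln, a tight junction protein, rose at least 3.10-fold against the floor of 3 (limma adjusted p = 0.0356), with 4.11, 5.81 and 3.97 in Dicer null arrays, against 1.69, 1.27 and 1.25 in Dicer heterozygous arrays. That call was lost with values under 3 set to 3 (difference 1.63, limma adjusted p = 0.126) and with no minimum mean (limma adjusted p = 0.0505). Among the fits that left out 1 array, only the one without Dicer null replicate 2 still called Fap and Ocln. Krt18, named here after its values were seen, stood at 2.23, 2.68 and 2.0 in Dicer null arrays, against 9.02, 2.09 and 2.17 in Dicer heterozygous arrays. Its high array, Dicer heterozygous replicate 1, is the one that was lowest for 11 members, and the link was not tested.

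**Figure D5:**
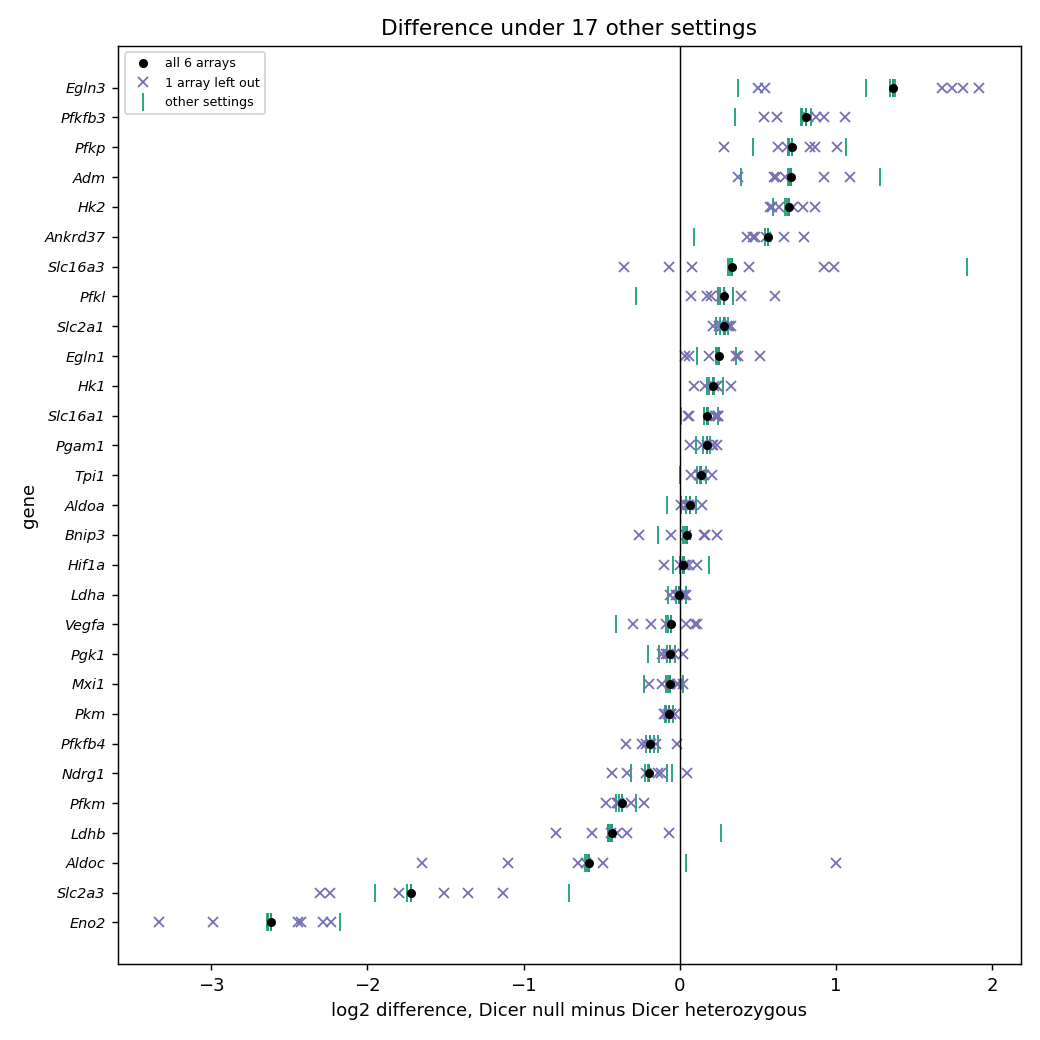
Log2 difference of each member (x axis, Dicer null minus Dicer heterozygous) with all 6 arrays (black), with 1 array left out (crosses) and under 11 other settings (ticks). Eno2 stays between -3.33 and -2.17 and Hk2 between 0.58 and 0.86, while Aldoc runs from -1.65 to 1.0.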

How the data were processed

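RNA of 3 Dicer null and 3 Dicer heterozygous samples was hybridised to Affymetrix 3′ arrays after biotin labelling, per the labels' protocols. The authors deposited log2 values for 45037 probe sets, made with R 2.11.1 and GCRMA 2.20.0 per the submitters' processing notes. The log2 scale was read from the range of 0.40 to 14.18. The chip definition used is not given in these sources. GCRMA equalises array distributions, which removes any overall shift in RNA amount.

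Probe sets were named from the platform annotation: 34945 had 1 symbol, 932 several and 9160 none. Those with a mean of at least 3 over the 6 arrays (24385) were fitted with limma 3.58.1 in R 4.3.3 (lmFit and eBayes, two-sided, no block), with Benjamini-Hochberg adjustment at 0.05 over all of them. The fit was run on simulated data with independent normal noise for each probe set, which cannot show how effects shared by a whole array act here. Members and the 10 lists of other genes were chosen with earlier results of these data known. Values per array are given for members with an unadjusted p under 0.05 or a log2 difference of at least 1, and for others whose spread was seen to be of interest. Lists name up to 4 called genes, or else that with the smallest p. The number of arrays, 3 a group, limits the precision. Alternatives were other minimums, a floor, normalizations, variance models, weights, probe set choices, a replicate block and each array left out, with probe sets kept by their mean over all 6 arrays. Promoter windows came from RefSeq. Figures were drawn with matplotlib 3.10.9.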

Additional observations from a re-analysis of the deposited data

How the results depend on the processing

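All settings were planned. Without 1 array, 45 to 857 probe sets, 31 to 465 genes and 0 members were called, against 756, 395 and 0 with all arrays (fewest without Dicer null replicate 2, most without Dicer heterozygous replicate 3), and the members' median was 0.03 to 0.14. Array weights called 6875 probe sets, 3333 genes and 4 members. Ordinary t statistics called 0 probe sets and 0 genes (4873 and 2442 at an unadjusted p under 0.05). Deviations from the group means correlated at -0.06, 0.11 and 0.24 between arrays of one number, so the numbers were not taken to pair the samples, and the replicate block called 116 probe sets, 73 genes and 0 members. Of the called genes named above, Mpc1 alone passed with the block. The cause was not tested. Other settings called 620 to 929 probe sets and 316 to 526 genes.

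The 7 called genes named here (Hif1an, Ak4, Mpc1, G6pc3, Slc2a12, Fap and Ocln) kept their sign in every setting run. Among members and nearby genes that were not called, array weights turned Pfkl (-0.28), Aldoa (-0.082), Aldoc (0.037), Ldhb (0.26), Hif1a (-0.046), Bnip3 (-0.14) and Cd68 (0.0040). Quantile normalization turned Ldha (0.043), and averaged probe sets turned Mxi1 (0.022). Without 1 array the sign turned for Hif1a (-0.10 to 0.11), Vegfa (-0.30 to 0.11), Bnip3 (-0.26 to 0.24), Pgk1 (-0.11 to 0.018), Ldha (-0.06 to 0.04), Slc16a3 (-0.36 to 0.99), Mxi1 (-0.20 to 0.022), Ndrg1 (-0.43 to 0.047) and Aldoc (-1.65 to 1.0).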

Other observations

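Some hypoxia genes outside the naming rule were noticed after their values were seen. Car9, a carbonic anhydrase used as a marker of hypoxic tumour cells, had log2 values of 1.59, 1.93 and 2.08 in Dicer null arrays, against 6.67, 6.59 and 2.27 in Dicer heterozygous arrays (limma adjusted p = 0.167). It was thus at background on 4 arrays and bright on Dicer heterozygous replicates 1 and 2. Gbe1, the glycogen branching enzyme, had 10.24, 10.20 and 10.43 in Dicer null arrays, against 7.15, 8.16 and 9.04 in Dicer heterozygous arrays, and its difference of 2.17 (SE 0.46) did not pass (limma adjusted p = 0.0611). Among the other glycolysis and glucose transport genes, Slc2a6 came nearer and lay the other way. Its difference was -2.16 (SE 0.43, limma adjusted p = 0.0548), with all Dicer null arrays below all Dicer heterozygous ones.

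Among the other HIF subunits, Epas1 and Arnt2 varied widely between arrays of one genotype. Epas1, the alpha subunit of HIF-2, had 4.48, 3.51 and 7.18 in Dicer null arrays, against 6.82, 6.36 and 3.08 in Dicer heterozygous arrays. Arnt2, a relative of the common partner Arnt, had 3.55, 2.08 and 2.16 in Dicer null arrays, against 3.51, 7.43 and 6.97 in Dicer heterozygous arrays (limma adjusted p = 0.135). Arnt itself differed by 0.27 (SE 0.16), with an adjusted p of 0.358 in limma. Hif3a, another alpha subunit, was too dim to test, with 3.19, 3.66 and 3.98 in Dicer null arrays, against at most 2.39 in Dicer heterozygous arrays. Arntl, a circadian relative of Arnt, differed by -0.28 (SE 0.45), with groups that overlapped.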
